A study of Bos taurus with 16 samples.

Results

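In 1 of 16 pools of bovine blastocysts, labelled Control 2.1, 200 loci had counts that were nearly absent from every other pool. A locus was taken as a member when it had at least 10 counts in Control 2.1 and its scaled counts (CPM, the share of a pool's total count scaled to 1e+06) were more than 10 times those of each of the other 15 pools. Of 22358 loci, 204 met this rule, and 4 were left out by name: VIM, IFI6, BCL2A1 and 1 locus of the major histocompatibility complex. The 200 members were 0.895% of all loci. They comprised 154 loci with a gene symbol, 34 with a LOC identifier and 12 transcript units without a gene. The members were selected on the measured counts of Control 2.1 against all other pools, so their levels in that pool are a description and carry no test.

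Leukocytes are the cells of blood and tissues that defend against microbes, and macrophages are the members of this family that engulf particles and digest them in lysosomes. Macrophages are set up by the transcription factor PU.1, the product of SPI1, and many of their surface receptors signal through the adaptor TYROBP. A blastocyst has a trophectoderm, an inner cell mass and no leukocytes of its own, and it is found in the uterus, where maternal leukocytes live.

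The study asked whether more methionine in the maternal diet changes the transcriptome of the early embryo. Lactating Holstein cows received a Control diet or the same kind of diet with rumen-protected methionine, named Methionine in the labels, from calving until their embryos were collected. All cows were superovulated and inseminated, and expanded blastocysts were flushed from the uterus, although the labels name the tissue IVF embryos. Each of 4 cows per diet gave 2 pools of blastocysts, named by cow and pool, so that the 8 Control pools come from cows 1 to 4 and the 8 Methionine pools from cows 5 to 8. RNA of each pool was linearly amplified before sequencing. By the study's listing, several Methionine pools held more blastocysts than any Control pool. Several also had a lower quality of amplified RNA than any Control pool with a value. Neither was entered in the diet comparisons. The sire of each pool and its sequencing lane are not given in the sources used here.

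The total count was 5624126 in Control 2.1, the lowest of the 15 pools other than Control 3.2, in which the totals reached 7826542. Control 3.2 had 1745048 counts and was not analysed by the study, since an unusual part of its reads lay outside annotated exons. It was kept when the members were chosen and was left out of the diet comparisons. Control 2.1 had at least 1 count at 11449 loci, against 10225 to 12096 in the 14 other pools without Control 3.2. Correlations were taken over 10419 loci that did not meet the rule and had a summed CPM of at least 15 in the 15 pools other than Control 3.2. The median Spearman correlation of Control 2.1 with the 14 others was 0.776. The median of each of the 14 with the rest of the 15 pools, Control 2.1 included, lay between 0.762 and 0.822. By this measure Control 2.1 lay within the range of these pools, toward its lower end. The correlation takes all these loci at once and does not show single genes, and lysosomal genes that were not members were higher in Control 2.1, as given below.

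Together the members held 63501 counts in Control 2.1, which was 1.13% of the pool (95% Wilson interval 1.12% to 1.14%, covering counting error only) or 11291 CPM. In the other 15 pools the same loci summed to between 26.0 and 91.9 CPM. Control 2.2, the second pool of the same cow, had 380 counts at these loci, or 58.8 CPM, and lay within that range. The count of a member in Control 2.1 ranged from 10 to 8080 with a median of 74.5. Few loci carried most of the sum, as the 10 highest members held 54.1% of it and 34 members had fewer than 20 counts. A count of 3 in a pool, the limit that a count of 0 allows, corresponds to 0.533 CPM in Control 2.1 and to between 0.383 and 0.505 CPM in the 14 other pools. Counts were not divided by gene length, so a share of the counts is a share of the reads and does not rank the expression of one gene against another.

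**Figure D1:**
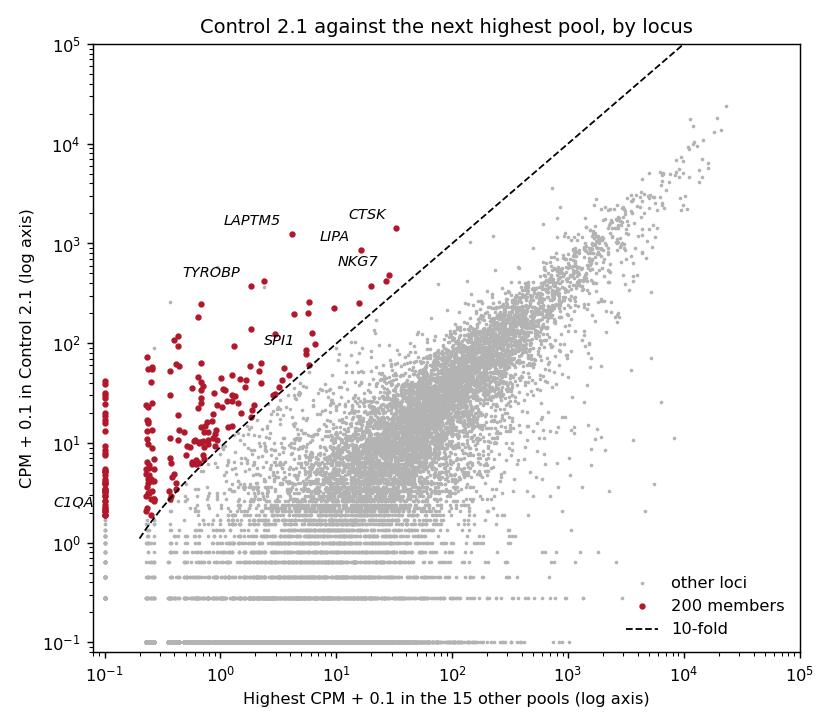
Each point is a locus, with its CPM + 0.1 in Control 2.1 on the vertical log axis and the highest CPM + 0.1 among the 15 other pools on the horizontal log axis; the dashed line marks the 10-fold threshold. The 200 members are in red above the line, and the grey points above it are loci left out by name or with fewer than 10 counts.

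The threshold cut through a continuum. The members nearest to it were ALX1 with 10.1 times the CPM of the next pool, GABPB2 with 10.4 times and C1H21orf7 with 10.4 times. Just outside lay CCDC81 with 9.85 times, ANXA4 with 9.80 times and C18H16orf7 with 9.77 times. Among the members with a count elsewhere, the median was 25.1 times and the highest 557 times. In 44 members no count was found in any of the other 15 pools, and 34 members had at least 10 counts in 1 or more of them. A median of 95.6% of a member's counts over all 16 pools came from Control 2.1, and the lowest share was 63.9%.

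The same rule was applied to each other pool in turn, without leaving out names. It found between 35 and 110 loci in the 14 pools other than Control 3.2, and these held 0.0278% to 0.238% of their pool's counts. In Control 2.1 the 204 loci held 1.26%. Control 3.2 exceeded it, with 310 loci and 12.8% of the counts. Loci confined to 1 pool were therefore present in all 16 pools, and Control 2.1 had more of them, with more counts, than the 14 pools of similar depth.

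**Figure D2:**
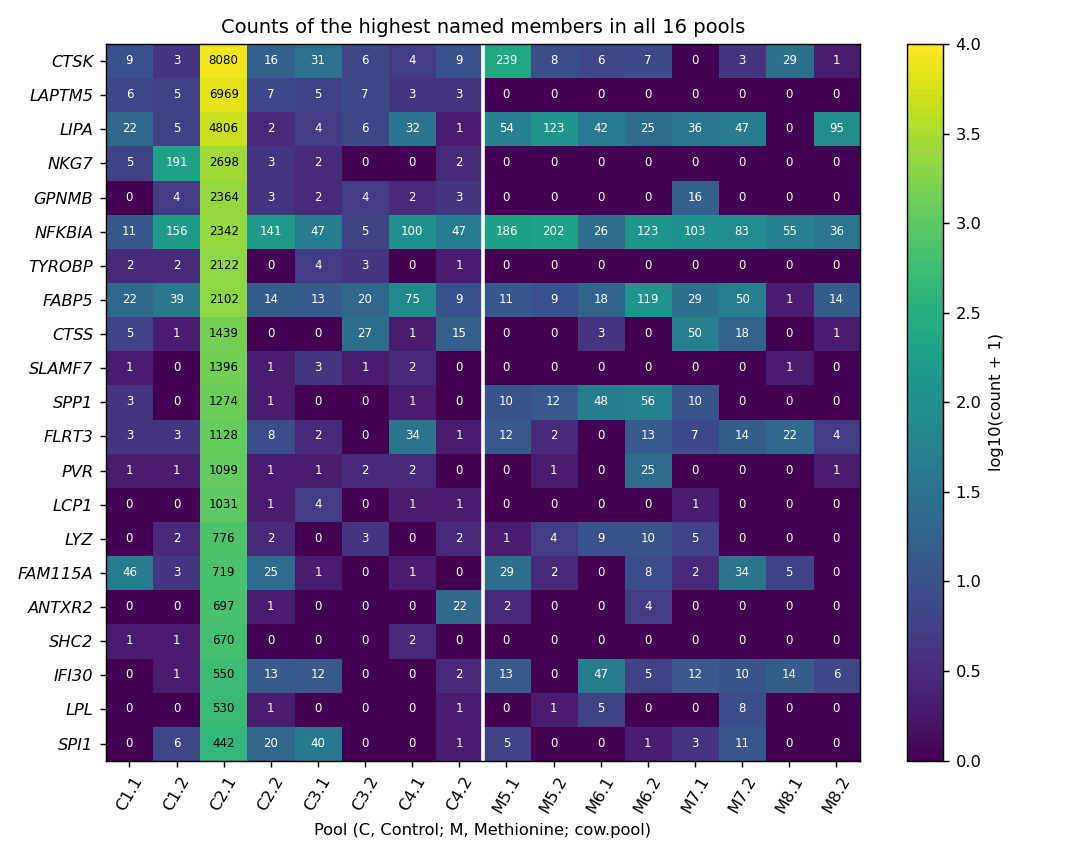
Counts in each of the 16 pools (columns; C, Control; M, Methionine) for the 20 members with a gene symbol and the highest CPM in Control 2.1, and SPI1; the colour gives log10(count + 1). The column of Control 2.1 holds 442 to 8080 counts, and no other cell exceeds the 239 counts of CTSK in Methionine 5.1.

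The 7 members known as lysosomal proteins held 38.4% of all member counts. CTSK, the collagen-degrading protease cathepsin K, had 8080 counts in Control 2.1. In the other Control pools CTSK had 3 to 31 counts with a median of 9, and in the Methionine pools 0 to 239 with a median of 6.5. The 239 counts were in Methionine 5.1, the next highest pool was Control 3.1 with 31, and the diets overlapped outside Control 2.1.

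LAPTM5, a lysosomal membrane protein of blood-forming cells, had 6969 counts in Control 2.1. The 7 other Control pools had 6 counts in 1.1, 5 in 1.2, 7 in 2.2, 5 in 3.1, 7 in 3.2, 3 in 4.1 and 3 in 4.2, while all 8 Methionine pools had 0. The low counts of LAPTM5 thus did not overlap between the diets.

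LIPA, the acid lipase that breaks down cholesteryl esters in lysosomes, had 4806 counts in Control 2.1. Its other Control pools held 1 to 32 counts with a median of 5 and the Methionine pools 0 to 123 with a median of 44.5, so the ranges overlapped and the higher values lay in Methionine pools. GPNMB, a glycoprotein of macrophage lysosomes and melanosomes, had 2364 counts in Control 2.1. It reached 4 counts in the rest of the Control pools, and Methionine 7.1 with 16 counts was the only Methionine pool above 0.

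CTSS, cathepsin S, which trims the invariant chain of class II molecules, had 1439 counts in Control 2.1, 27 in Control 3.2 and 50 in Methionine 7.1. IFI30, a thiol reductase of antigen-processing lysosomes, had 550 counts in Control 2.1 and up to 47 in Methionine 6.1. GRN, the lysosomal protein progranulin, had 172 counts in Control 2.1 and at most 7 elsewhere. None of these 3 genes was limited to 1 diet outside Control 2.1.

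Lysosomal genes that were not members were also high in this pool. Of the 15 measured genes of the lysosome list, 5 were members (LAPTM5, LIPA, CTSK, CTSS and GPNMB) and 12 had their highest CPM among all 16 pools in Control 2.1. The 10 that were not members summed to 5622 CPM there, against 567 to 1567 CPM in the 14 other pools. CTSZ had 5823 counts in Control 2.1 and at most 1079 in those 14 pools. CTSC had 2203 against at most 593. CTSB had 8896 against at most 4745, and CD63, a membrane protein of late endosomes, 13170 against at most 8879. These 4 genes were therefore higher than in the 14 other pools but by less than the 10-fold of the rule. PSAP, the precursor of the saposins, had 0 counts in Control 2.1 and up to 191 elsewhere.

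SPI1, the transcription factor PU.1 that specifies myeloid cells, had 442 counts in Control 2.1, and among the other Control pools 40 in 3.1, 20 in 2.2, 6 in 1.2, 1 in 4.2 and 0 in 1.1, 3.2 and 4.1. In the Methionine pools SPI1 had 0 to 11 counts with a median of 0.5, within the range of the other Control pools.

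The receptors that signal through immunoreceptor tyrosine-based activation motifs (ITAM) use an adaptor, a tyrosine kinase and its scaffolds. TYROBP, the adaptor, had 2122 counts in Control 2.1. The other Control pools had 2 counts in 1.1, 2 in 1.2, 0 in 2.2, 4 in 3.1, 3 in 3.2, 0 in 4.1 and 1 in 4.2, and all 8 Methionine pools had 0. TREM2, a lipid-sensing receptor that uses TYROBP, had 19 counts in Control 2.1 and 0 in the 15 other pools. The scaffold BLNK had 52 counts in Control 2.1 and at most 6 elsewhere, and the kinase MATK 164 and at most 9. Of the 15 measured genes of the ITAM list only TYROBP and TREM2 were members. SYK, the kinase of the pathway, had 3 counts in Control 2.1, and FCER1G, the other common adaptor, 5.

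**Figure D3:**
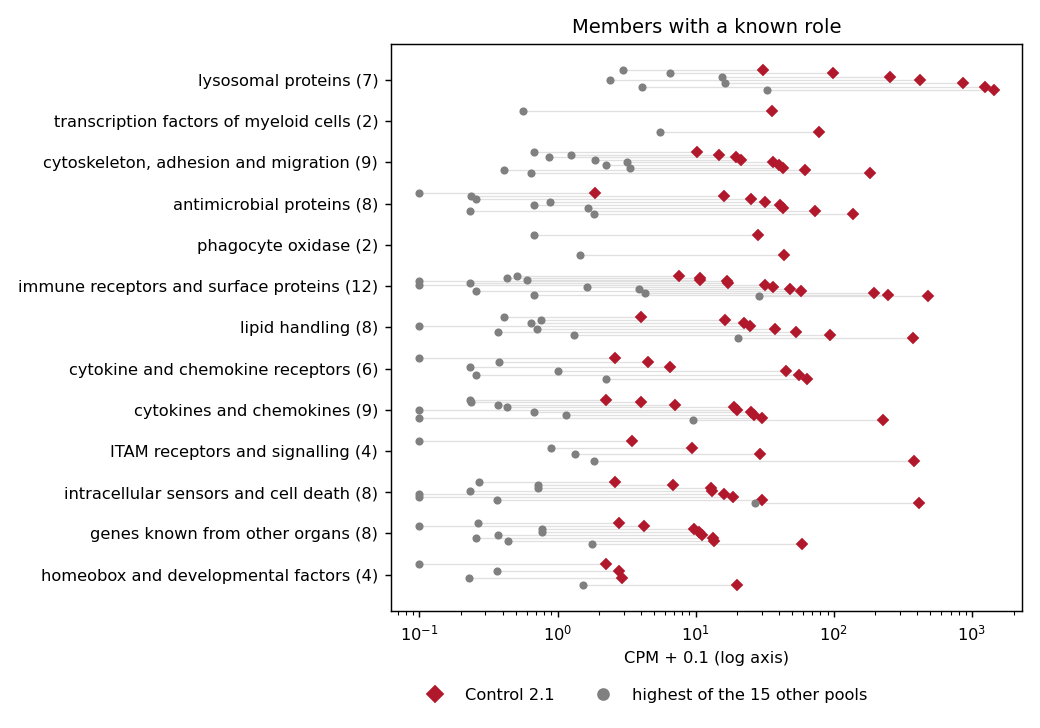
The 87 members with an assigned role, in 13 groups (number of members in parentheses), with CPM + 0.1 on a log axis; red diamonds are Control 2.1 and grey circles the highest of the 15 other pools, joined by a line for each gene. The choice of the members set a gap of over 10-fold in CPM, and the added 0.1 narrows it on this axis for genes with low counts.

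Surface proteins of immune cells made up 12 members from several lineages, and they held 10.3% of the member counts. NKG7, a membrane protein of cytotoxic granules, had 2698 counts in Control 2.1 and 191 in Control 1.2. The remaining Control pools had 0 to 5 counts of NKG7, and the 8 Methionine pools had 0. SLAMF7, a homotypic receptor of natural killer cells, plasma cells and macrophages, had 1396 counts in Control 2.1 and at most 3 elsewhere. PVR, the poliovirus receptor and a ligand of lymphocyte receptors, had 1099 counts in Control 2.1 and 25 in Methionine 6.2, with at most 2 in the others. Outside Control 2.1 these surface proteins were thus at 0 or at few counts in most pools, with 1 pool higher for NKG7 and another for PVR.

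The lipid-presenting molecules CD1A and CD1E had 272 and 205 counts in Control 2.1, and up to 23 and 11 elsewhere. CD84 and SLAMF9, receptors of the same family as SLAMF7, had 178 and 94 counts and were at 0 in the 15 other pools. CD274, the inhibitory ligand PD-L1, had 42 counts in Control 2.1 and at most 3 elsewhere. HLA-DMB, which loads peptides on class II molecules, had 60 counts and at most 3 elsewhere, and its reads may be shared with related loci.

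The lipid-handling members were 8 in number. FABP5, a fatty acid carrier found in many tissues, had 2102 counts in Control 2.1, 9 to 75 in other Control pools (median 20), and 1 to 119 in Methionine pools (median 16). It was detected in every pool, and the diets overlapped. LPL, lipoprotein lipase, had 530 counts in Control 2.1 and at most 8 elsewhere. CYP27A1, a sterol hydroxylase, had 298 counts and at most 2 elsewhere. ALOX5AP, which is needed to make leukotrienes, had 139 counts and was at 0 in the 15 others, and OLR1, a receptor of oxidised low-density lipoprotein, had 125 and at most 4 elsewhere.

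Antimicrobial proteins included LYZ, lysozyme, with 776 counts in Control 2.1. Its maximum among the remaining pools was 3 counts in Control and 10 in Methionine. S100A12, a calcium-binding protein of neutrophils and monocytes, had 413 counts in Control 2.1 and 1 in Control 1.1. Its neutrophil partners S100A8 and S100A9 had 2 and 0 counts. The beta-defensins DEFB5, EBD and DEFB4A had 241, 227 and 177 counts in Control 2.1. DEFB5 also had 10 counts in Control 2.2 and in Methionine 7.1, and reads could be split among these near-identical genes. C1QA, a chain of complement C1q, was at the minimum of 10 counts and at 0 elsewhere. CYBA, a membrane subunit of the phagocyte oxidase, had 243 counts in Control 2.1 and at most 10 in another pool.

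Cytokines and chemokines made up 9 members. SPP1, the secreted phosphoprotein osteopontin, had 1274 counts in Control 2.1 and 0 to 3 in the other Control pools. In the Methionine pools SPP1 had 10 counts in 5.1, 12 in 5.2, 48 in 6.1, 56 in 6.2, 10 in 7.1 and 0 in 7.2, 8.1 and 8.2. The 5 Methionine pools with SPP1 were above every Control pool but 2.1, and the other 3 overlapped with them. CCL5, a chemokine of T cells and macrophages, had 168 counts and TNF, the inflammatory cytokine, 112, and both were at 0 in the 15 other pools. The 2 loci named CXCL2, a neutrophil attractant, had 141 and 106 counts, and related loci may share their reads. Receptors of such signals had 14 to 358 counts: IFNGR2, a chain of the interferon gamma receptor, had 358, IL21R 313, and CXCR4, the receptor of CXCL12, 252. IFNGR2 had 13 counts in Control 4.1, IL21R 1 in Control 2.2, and CXCR4 6 in Methionine 7.2, each its highest value elsewhere.

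Genes of cytoskeleton and adhesion included LCP1, the actin bundler L-plastin, with 1031 counts in Control 2.1 and at most 4 elsewhere. ITGB2, the beta chain of leukocyte integrins, had 226 counts in Control 2.1 and 16 in Control 3.1. RGS1, a regulator of chemokine signalling, had 349 counts and 2 in Control 2.2, and was at 0 in the rest. MMP9, gelatinase B, had 204 counts in Control 2.1 and 24 in Control 4.2, and was at 0 in 4 of the other 15 pools. NFKBIA, the inhibitor of NF-kB, had 2342 counts in Control 2.1 and was detected in all pools, with 5 to 156 counts in the Control pools other than 2.1 and 26 to 202 counts under Methionine. It is a member by level and not by absence elsewhere.

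Some members are not known as genes of leukocytes. MYH11, the myosin of smooth muscle, had 329 counts in Control 2.1 and at most 10 elsewhere. HOXC11, a homeobox factor of the posterior body, had 111 and at most 11, ALX1, a homeobox factor of the head, 15 and at most 2, and DAZL, a protein of germ cells, 59 and at most 4. GIP, an intestinal hormone, had 75 counts, CSN1S2, a milk casein, 62, and KRT84, a hair keratin, 23, and each had at most 2 in another pool. The 8 members known from other organs held 1.09% of the member counts and the 4 developmental factors 0.243%.

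Other high members have no group here. FLRT3, an adhesion protein, had 1128 counts in Control 2.1, 34 in Control 4.1 and 22 in Methionine 8.1. ANTXR2, a collagen-binding receptor of anthrax toxin, had 697 and up to 22 in Control 4.2. SHC2, an adaptor of tyrosine kinases, had 670 and at most 2 elsewhere. FAM115A had 719 counts in Control 2.1 and up to 46 in Control 1.1. GABPB2, a subunit of a GA-binding transcription factor, had 336 counts in Control 2.1, 40 in Methionine 5.2 and 35 in Methionine 8.2. The LOC identifier with the most counts, LOC100297676, had 1461 in Control 2.1 and up to 10 in Control 3.2. Of 199 symbols, 152 were found in the RefSeq gene table of assembly ARS-UCD2.0, on 30 chromosomes, and only DEFB4A and EBD were neighbours there. That table is of another assembly than the counts and does not place the other symbols. In the locus numbering of the counts, CTSK and CTSS were consecutive, as were TNFAIP8L2 and GABPB2 and both loci named CXCL2.

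**Figure D4:**
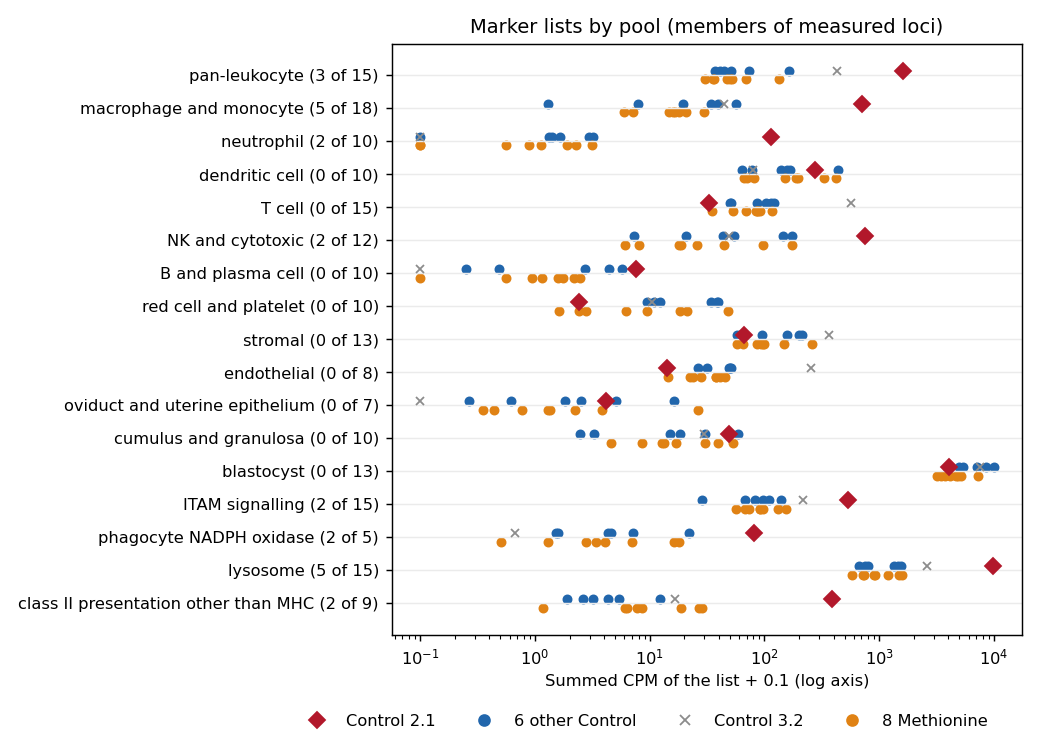
Summed CPM + 0.1 (log axis) of 17 gene lists in each pool, with the number of members of the measured loci in parentheses; red diamonds are Control 2.1, blue circles the 6 other Control pools, crosses Control 3.2 and orange circles the 8 Methionine pools. The sums include the members, and Control 2.1 lies right of every other pool for the pan-leukocyte (1603 CPM), macrophage and monocyte (702 CPM), NK and cytotoxic (753 CPM) and lysosome (9828 CPM) lists, and within or under the 14 pools for the T cell, endothelial and blastocyst lists. It lies furthest right on further lists too, on the B and plasma cell list by 7.47 against 7.43 CPM.

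Marker lists of cell types were compared next. On 7 lists of leukocyte types lay 12 members and on 6 lists of other cells 0 members, beside a share of 0.895% among all loci. LAPTM5, NKG7, SPI1 and GPNMB on the leukocyte lists were markers given with the members. Membership was set by the counts of Control 2.1, so the numbers of members on the lists are a description and carry no test. Of 18 measured markers of macrophages and monocytes, 5 were members, SPI1, GPNMB, LYZ and C1QA among them, beside a share of 0.895% among all loci. The list summed to 702 CPM in Control 2.1 and to 1.19 to 56.7 CPM in the 14 other pools. Its members made up nearly all of this, as the 13 other markers summed to 27.2 CPM, within the range of the 14 pools.

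On this list 10 of the 18 markers had their highest CPM among all 16 pools in Control 2.1, and others were higher elsewhere. CSF1R, the receptor of the macrophage growth factor, had 13 counts in Control 2.1 and up to 84 in the 14 other pools. CD14 had 5 counts and CD163 had 2, with up to 84 and 158 counts in the 14 others. CD68, a lysosomal glycoprotein of macrophages, had 45 counts, and its CPM there was the highest of all 16 pools. C1QB and C1QC, the partners of C1QA, had 5 and 2 counts and were at 0 in the 14.

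Among 15 measured markers shared by leukocytes, LAPTM5, LCP1 and ITGB2 were members, and 6 had their highest CPM in Control 2.1. The sum of 1603 CPM was made by these members, as the 12 other markers summed to 140 CPM, within the 30.0 to 162 CPM of the 14 pools. PTPRC, the common antigen CD45, had only 18 counts in Control 2.1, fewer than its highest count of 48 in the 14 other pools and the 278 in Control 3.2. CD53, a tetraspanin of leukocytes, had 431 counts against at most 98 and was no member.

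Lymphocyte lists had no member other than NKG7 and SLAMF7. Of 15 T cell markers 10 were at 0 in Control 2.1, CD3D, CD3E and CD3G included. CD3E and CD3G were at 0 in all 16 pools and CD3D had at most 1 count in the 14 others. The CD3 genes thus did not set Control 2.1 apart. The list sum of 32.7 CPM was under all 14 other pools (34.5 to 121 CPM). Such sums came mostly from ZAP70 and LCK, detected in all 16 pools, with 107 counts of ZAP70 in Control 2.1 and up to 763 in the 14 others. IL7R of the T cell list had 37 counts, against at most 7 in the 14 others. Of 10 B and plasma cell markers 8 were at 0, with CD79A, CD79B and MS4A1 among them. CD79A and CD79B were at 0 in all 16 pools, and MS4A1 had at most 4 counts in any. The sum of the B and plasma cell list, 7.47 CPM, was just above the 0 to 7.43 CPM of the 14 others. IGJ of that list had 35 counts against at most 12. On the NK and cytotoxic list, with 12 loci, 9 were at 0, including PRF1 and GNLY, which were at 0 in all 16 pools. NKG7 and SLAMF7 made up all but 25.1 of the 753 CPM, and a GZMB locus that was higher in other pools made up the rest. Neutrophil markers gave MMP9 and S100A12, while 6 of 10 loci were at 0, most of them in every pool. The dendritic cell list gave no member of 10, although CD83 had 297 counts and IRF8 100 against at most 105 and 41 in the 14 other pools.

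Stromal genes gave 0 members of 13, and their 66.3 CPM lay within the 57.4 to 260 CPM of the 14 pools. Endothelial (8 genes), oviduct and uterine epithelium (7), cumulus and granulosa (10) and red cell and platelet (10) lists also gave 0 members. With members at 0.895% of all loci, lists this short would seldom hold one, so little is read from their absence. HBB, a globin of red cells, was at 0 in Control 2.1 and had at most 1 count in the 14 other pools. Of the named members, SPI1, TYROBP, LYZ and the lysosomal genes pointed to the myeloid side of the leukocytes. The CD3, CD79 and HBB genes were at 0, but had at most 1 count in any of the 14 other pools too. NKG7 with 2698 counts and SLAMF7 with 1396, both on the NK and cytotoxic list, did not point to the myeloid side alone. That list summed to 753 CPM, of which NKG7 held 480, and the macrophage and monocyte list to 702 CPM, of which GPNMB held 420. Each sum thus rested mostly on a marker given with the members, and the sums are not ranked against each other. PTPRC, CSF1R, CD14 and CD163 went against a complete macrophage or leukocyte profile, and for that reason the pool is called here by its label only.

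The pool also had the genes of the embryo. None of 13 blastocyst genes was a member. Most of them were expressed in the other pools too, so the rule could hardly admit them and nothing is read from that. The list summed to 4082 CPM against 3194 to 9958 CPM in the 14 others. By gene, 11 lay within the range of the 14 pools, 9 were under their median, SOX17 was at 0 in all 15 and GATA6, a factor of primitive endoderm, was under the lowest with 40.9 CPM against 45.8 to 157 CPM. KRT18, a keratin of trophectoderm, had 2946 CPM against a median of 3471. In pooled tissue, a different number of cells of a type and a different amount of RNA per cell cannot be told apart.

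The 15 other pools were then compared by diet, since the rule treats them alike. Over the 14 pools without Control 2.1 and 3.2, 154 members had at least 1 count. Only LAPTM5 had higher CPM in every Control pool than in every Methionine pool, and no member had the reverse. Over all loci with a count in these pools, 5 of 17207 did so (0.0291%). The mean of LAPTM5 was 0.696 ± 0.245 CPM in Control (SD, n = 6 pools), at least 1.65-fold higher than the 0.423 CPM of a floor of 3 counts in each Methionine library, in all of which it was at 0.

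Methionine pools and Control pools were tested with the exact test of edgeR with Benjamini-Hochberg adjustment, counting a locus as different with an adjusted p (FDR) under 0.1 and at least a 2-fold change. Of 10236 loci tested, 64 passed (0.625%). Only 9 members had enough counts to be tested, and 1 of them passed, NKG7, which was lower in Methionine with FDR = 0.0293. Its 6 Control pools had 5.05 ± 11.6 CPM (SD), at least 11.9-fold over the floor of the 8 Methionine pools, all at 0. That mean rests on Control 1.2, since NKG7 was below the filter and not tested without Control cow 1. In the 4 Control pools without that cow its mean was 0.248 ± 0.190 CPM (SD), under the floor. With the pools of a cow summed NKG7 had FDR = 0.106, with limma voom and cow as a random effect 0.996, and by edgeR's quasi-likelihood test 0.401. DESeq2 gave it no adjusted p.

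The remaining 8 members tested were FLRT3, FABP5, NFKBIA, LIPA, CTSK, FAM115A, SPP1 and IFI30, and none passed. SPP1 had 0.119 ± 0.157 CPM in Control (SD, n = 6) and 2.53 ± 3.52 in Methionine (SD, n = 8), with a log2 fold change of 4.18, p = 0.0203 and FDR = 0.424 by edgeR's exact test. Without Methionine cow 6 the mean of SPP1 in Methionine was 0.707 ± 0.780 CPM (SD, n = 6) and it was below the filter. LIPA had 1.65 ± 2.04 and 7.27 ± 5.11 CPM, a log2 fold change of 2.07 and an FDR of 0.649 by the same test. CTSK had 1.68 ± 1.41 and 5.08 ± 11.3 CPM, where Methionine 5.1 set the mean, and the direction turned without cow 5 (log2 fold change 1.31 with it and -0.48 without it) and by DESeq2 (-0.47) and limma voom (-0.35), with an FDR of at least 0.720 under every setting run. For FABP5 the log2 fold change was 0.09 and for NFKBIA 0.17.

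Without a filter other than 1 count, 42 of 17207 loci passed (0.244%), and of the 154 members tested, 1 passed, again NKG7 (FDR = 0.0483). LAPTM5 had FDR = 0.110 in that test and TYROBP 0.770. With Control 2.1 in the comparison, 22 of 96 members tested passed, all higher in Control, and 81 of 10519 loci did (0.77%). Since Control 2.1 chose the members, nothing is read from that count. By the quasi-likelihood test 0 members passed there. At an unadjusted p under 0.05 by that test were 89 of the 96 members and 909 of the 10519 loci. Control 2.1 is in that test too, so nothing is read from these counts either.

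**Figure D5:**
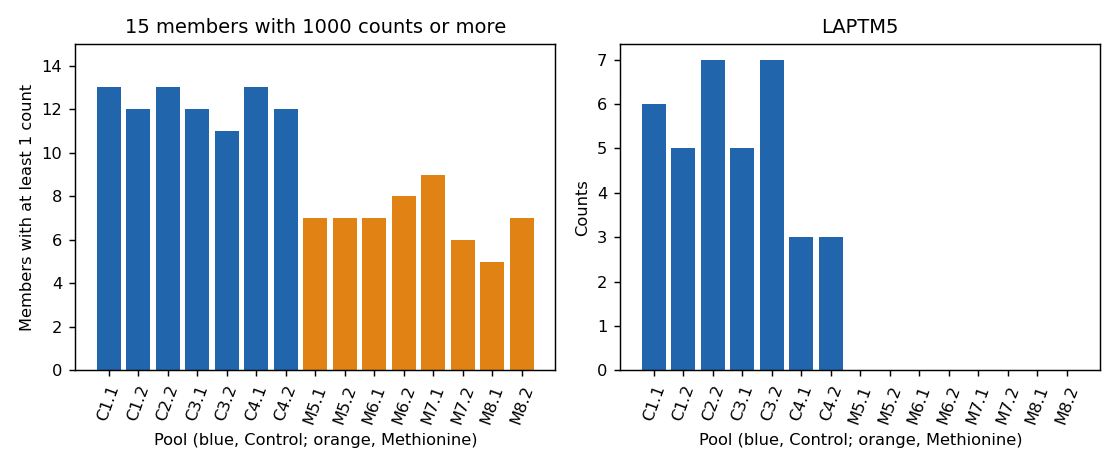
Left, the number of the 15 members with at least 1000 counts in Control 2.1 that had at least 1 count in each other pool; right, the counts of LAPTM5 in the same pools. Control pools (blue) hold 11 to 13 of the 15 members and 3 to 7 counts of LAPTM5, and Methionine pools (orange) 5 to 9 members and 0 counts.

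Low counts of the members elsewhere were more frequent in Control than in Methionine pools. Of the 15 members with at least 1000 counts in Control 2.1, 11 to 13 had at least 1 count in each of the 7 other Control pools and 5 to 9 in each of the 8 Methionine pools, so the groups did not overlap. Over locus and pool pairs these were 81.9% and 46.7%. Among the 86 members with at least 100 counts, the shares were 37.5% and 26.9%. When the same question was asked of the loci confined to each other pool, those with at least 100 counts were found more often in pools of the same diet for 15 of 16 source pools, with Control 4.2 as the exception. At a minimum of 500 counts this held for 8 of 11 source pools and at 1000 counts for 5 of 5. Several of these source pools held few loci, from 1 to 100 at 500 counts and from 1 to 59 at 1000 counts. At 1000 counts Control 1.2 held 1 locus, Methionine 6.1 held 3 and Methionine 8.2 held 4. The study sequenced its 16 libraries in 2 lanes of 8, and the lane of each pool is not given in the sources used here, so the part of lane in these low counts was not tested.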

How the data were processed

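RNA-Seq was made from amplified RNA of 16 embryo pools. The authors mapped reads to bosTau7 with TopHat2 2.0.4, assembled transcripts with Cufflinks 2.0.2 and counted reads per gene with HTSeq, as the submitters' processing notes list these tools. The deposited files hold raw counts per gene, in 1 table for each pool. The 22552 rows describe 22358 loci, and 182 loci that stood in several rows were entered once. Reads that several copies of a gene share cannot be assigned from these counts, and whether counting used strand is not given in the sources used here.

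CPM were computed on each pool's total. Members, role groups and gene lists were chosen with earlier results of these data known, and roles were given after the member names were seen. Named genes are the 5 markers given with the members (LAPTM5, TYROBP, NKG7, SPI1 and GPNMB), members and defining markers on the lists, the 20 named members with the highest CPM, the 3 on either side of the threshold, members with counts elsewhere and members called by diet. Further examples within the role groups, GABPB2 and LOC100297676 among them, were chosen after their values were seen. Values of some members are not reported here.

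Diets were compared with edgeR 4.0.16 in R 4.3.3, after the study's methods: TMM normalization, common and tagwise dispersion, the exact test, Benjamini-Hochberg adjustment over all loci tested and a filter of 15 summed CPM. Fold changes of genes with 0 counts in a group depend on the prior count and were replaced by bounds at 3 counts per library. Both pools of a cow entered as separate samples, so p-values measure the spread between pools. Alternatives were the quasi-likelihood test, DESeq2 1.42.0, limma 3.58.1 with voom, other filters and scalings, the pools of a cow summed, a replicate block and each cow left out. The code was tested on simulated data. Intervals and floors cover counting error only. Totals were 5624126 to 7826542 counts in 15 pools and 1745048 in Control 3.2.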

Additional observations from a re-analysis of the deposited data

Results flagged for a closer look

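The counts of the 21 members in the plot of counts by pool, and pool totals and sums, were examined for a pool that stood far from the rest of its diet group, by the gap of the highest or lowest pool to its neighbour as a share of the group's range. Of 53 groups of pools, 15 had such a pool. Chance gives about 1 in 20 for continuous values, but more for counts near 0, where 1 count against pools at 0 is enough, so the 15 are not read against that rate. No pool total or sum was among them.

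Among the 6 Control pools other than 2.1 and 3.2, NKG7 had 191 counts in Control 1.2, FLRT3 had 34 in Control 4.1, and CTSS and ANTXR2 had 15 and 22 in Control 4.2. SPP1 with 3 counts in Control 1.1 and LCP1 with 4 in Control 3.1 also stood apart, at or near the floor of 3 counts.

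Among the 8 Methionine pools, CTSK had 239 counts in Methionine 5.1, IFI30 had 47 in Methionine 6.1, FABP5 and PVR had 119 and 25 in Methionine 6.2, GPNMB and CTSS had 16 and 50 in Methionine 7.1, and SPI1 had 11 in Methionine 7.2. LCP1 in Methionine 7.1 and SLAMF7 in Methionine 8.1 stood apart with 1 count each, which is under the floor. The cause of these values was not tested.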

How the results depend on the processing

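At a minimum of 50 counts the rule kept 125 members, and under the 6 other changes of fold, minimum, scaling or pools it gave 143 to 283. The members' share of Control 2.1 was 1.61% at 5-fold, 0.879% at 20-fold, 1.10% at 50 counts, 1.14% on raw counts and 1.19% without Control 3.2. That last change kept all 200 members and added 18, CD44 and IRF2 among them.

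In the diet comparison over 14 pools, 64 loci passed, against 1 by the quasi-likelihood test, 42 without the filter, 0 by limma voom, 20 with counts under 1% of the highest set to 0 and 378 with Control 3.2 added. Leaving out 1 cow gave 24 to 86. Of the members 1 passed, and 0 passed by the quasi-likelihood test, DESeq2, the pools of a cow summed, limma voom and the 1% setting, while 2 passed (NKG7 and LAPTM5) with the filter taken over 15 pools, which LAPTM5 met through Control 2.1, the pool that chose the members, so that no call is read from it. Under the 1% setting NKG7 had FDR = 0.355 by the exact test. Its Methionine pools were all at 0, so no fold change is given. The quasi-likelihood test left 2 members at an unadjusted p under 0.05. Leaving out 1 cow gave 0 to 1, with 0 without Control cow 1, where NKG7 was not tested, and 0 without Methionine cow 7, where it had FDR = 0.108. Under the settings that tested NKG7 its FDR ranged from 0.00226 to 0.996. DESeq2 gave it no adjusted p.

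When the number of a pool within its cow was fitted as a replicate block, 0 loci and 0 members passed. Pools of the same number in different diets had a mean correlation of deviations of -0.0085 over 24 pairs, so the numbers did not pair the pools. With Control 2.1 in the comparison, 22 members passed, against 0 by the quasi-likelihood test and 12 without the filter. The cause of these changes was not tested. Low counts limit most members outside Control 2.1, where 9 of 154 passed the filter, and Control 2.1 is a single pool with no replicate.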
